A study of Homo sapiens with 32 samples.

Results

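The genes described here belong to the families that build, regulate and remodel spliced transcripts: SR and SR-related proteins, heterogeneous nuclear ribonucleoproteins (hnRNPs) and polypyrimidine tract-binding proteins, core spliceosome subunits, RNA-binding motif (RBM) proteins, DEAD-box and DEAH-box RNA helicases, cleavage and polyadenylation factors, cell-type-restricted splicing regulators and the IGF2BP RNA-binding proteins. Members were taken by gene symbol, with antisense genes left out. The rule matched 428 symbols, of which 133 had counts among the 7978 genes measured, and those 133 genes held 493 of the 26104 merged m6A peaks. H1 and MEL1, both established human embryonic stem cell lines, were sampled undifferentiated (S0) and after directed differentiation to posterior foregut (S3, day 9), pancreatic progenitors (S4, day 14) and immature β-like cells (S6, day 31), with no genetic change or drug treatment compared between the groups. Each line gave 2 replicate preparations per stage, and from each preparation 1 fraction of fragmented mRNA was sequenced directly (input) and 1 after pull-down with an antibody against N6-methyladenosine (m6A-IP), so 16 input and 16 IP libraries entered. The study describes the replicates as independent biological samples, while the labels do not say what separates them, such as a differentiation or a passage, so the p-values measure the spread between these samples.

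Splicing removes introns through the spliceosome, whose small nuclear RNAs and core proteins recognise splice sites and are rearranged step by step by DEAD-box and DEAH-box helicases, ATP-driven enzymes that remodel RNA and RNA-protein complexes. SR proteins generally promote the use of nearby exons, while many hnRNPs and polypyrimidine tract-binding proteins repress them. Regulators with restricted expression set the exon choice of a tissue: ESRP proteins in epithelia, SRRM4, NOVA, CELF and neuronal ELAVL proteins in neurons and, for several of them, in endocrine cells, and MBNL proteins in cells leaving the pluripotent state. m6A is deposited on mRNA by a writer complex that RBM15 and RBM15B help to recruit, and HNRNPC and the IGF2BP proteins have been described as binding methylated RNA or the structures it opens.

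By family, counts were available for 12 SR and SR-related genes (60 peaks), 21 hnRNP and PTB genes (77), 17 core spliceosome genes (54), 26 RBM genes (103), 26 DEAD-box genes (94), 12 DEAH-box genes (38), 7 cleavage and polyadenylation genes (15), 10 cell-type-restricted regulators (33) and 2 IGF2BP genes (19). A gene's input count is the sum over its merged peaks, because the table holds no reads outside peaks, and genes without a peak were not analysed here. Members had a median of 3 peaks against 2 for all genes. Among the 133, 9 are readthrough transcripts, pseudogenes or near-identical copies (HNRNPUL2-BSCL2, RBM14-RBM4, HNRNPA1P7, HNRNPA1P10, HNRNPA1L2, HNRNPA1L3, DDX12B, DDX12P and RBMXL1), and their counts are uncertain because reads can fall to their parent genes. All 133 passed the minimum of 10 input reads. Of 38 regulators listed by name, 21 had counts, and PTBP2, QKI, MBNL1, RBFOX1, ELAVL3, ELAVL4 and HNRNPA2B1 were among those without a merged peak.

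Input libraries held 2652830 to 6879256 reads in peaks and IP libraries 2378881 to 15674899, with the MEL1 S4 IP libraries the shallowest at 2483580 and 2378881. The members took 1.62 to 2.74% of input reads. Mitochondrial transcripts took 26.4 to 41% of input reads at S0 and 11.6 to 16.4% at S6. At S0 the 7 measured undifferentiated-cell markers summed to 3870 to 5660 counts scaled to library size (CPM, normalised by TMM) and at S6 to 466 to 916, and all 7 posterior foregut markers rose from S0 to S3. Only 4 of 16 endocrine markers had counts (CHGA, SCG5, ISL1 and GLIS3), and CHGA, at 62.3 to 243 CPM at S0 and 721 to 810 CPM at S6, made up nearly all of their sum. Of 6 pancreatic progenitor markers 4 had counts. Among them PDX1 was at 21.5 and 19.5 CPM in H1 S4 but at 3.02 and 2.21 CPM in H1 S6, against 67.2 and 57.7 CPM in MEL1 S6. SOX2 was still at 612 and 568 CPM in H1 S6, against 176 and 214 CPM in MEL1 S6. The stage names are thus those of the protocol, and the 2 lines differed in these markers at S6. In no replicate pair did the libraries agree within sampling noise (chi-square per degree of freedom of 1.67 to 35), and each preparation was counted as a sample. This measure cannot tell separate cultures from separate libraries of 1 culture, since both can exceed sampling noise. The H1 input pairs at S0, S3 and S6 were the closest, at 1.89, 1.87 and 1.67, against 4.14 to 13.7 for the MEL1 input pairs. The input library of H1 S4 replicate 2 stood apart: in 37 member peaks enriched by the antibody at every stage, its input exceeded that of replicate 1 by a median of 0.48 on the log2 scale (0.67 over 3156 peaks of all genes), against -0.22 in the 210 member peaks depleted at every stage, and for results that turn on this library the value without it is given beside them.

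Of the cell-type-restricted regulators, SRRM4, CELF4, NOVA1 and MBNL2 were higher at S6 than at S0, the first 3 mostly in H1. SRRM4 and the related SRRM3 promote the inclusion of microexons in neurons and endocrine cells. SRRM4 input in the order H1 replicates 1 and 2, then MEL1 replicates 1 and 2, was 1.21, 2.05, 1.03 and 1.09 CPM at S0 and 40.7, 46.1, 3.73 and 4.44 CPM at S6. At S3 it was 1.58, 2.47, 2.75 and 0.677 CPM, and at S4 3.95, 73.2, 1.26 and 2.21 CPM. Every S6 library lay above every S0 library, the H1 libraries by far the most, and the single high S4 value was that of H1 S4 replicate 2. SRRM4 rose by 3.60 ± 0.95 (log2 fold change ± SE, n = 4 per stage, edgeR quasi-likelihood test with Benjamini-Hochberg adjusted p = 0.00665). The within-line estimates were 4.70 (H1) and 1.92 (MEL1), and the MEL1 change alone was not called (adjusted p = 0.165, edgeR).

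CELF4, an RNA-binding protein of neurons, measured 3.38, 3.41, 2.47 and 1.52 CPM at S0 and 35.9, 38.8, 5.23 and 4.03 CPM at S6. The S6 libraries again lay above all S0 libraries, with H1 highest. Between these stages CELF4 was at 0.206 to 2.0 CPM at S3, and at 0.494, 7.96, 1.26 and 2.95 CPM at S4. It rose by 2.67 ± 0.75 from S0 to S6 (edgeR, Benjamini-Hochberg adjusted p = 0.00913) and by 2.44 ± 0.74 from S4 to S6 (adjusted p = 0.0674), the only member called higher in that last step. The within-line estimates from S0 to S6 were 3.45 (H1) and 1.20 (MEL1), the latter not called (adjusted p = 0.185, edgeR), and the S4 to S6 call was lost when any 1 of 5 libraries was left out.

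NOVA1, which regulates neuronal exons and is also present in pancreatic β cells, measured 1.93, 1.14, 4.11 and 1.09 CPM at S0, 6.90, 4.74, 2.25 and 2.93 CPM at S3, 9.63, 23.3, 1.26 and 1.11 CPM at S4 and 18.8, 26.9, 6.72 and 2.42 CPM at S6. Its groups overlapped, because MEL1 S6 replicate 2 was below MEL1 S0 replicate 1. The rise from S0 to S6 was 2.18 ± 0.72 (edgeR, adjusted p = 0.0229), and was 3.88 in H1 and 0.81 in MEL1, the latter not called (adjusted p = 0.297, edgeR). The neuronal ELAVL2 held 10.7 and 9.04 CPM in H1 S6 and 1.49 and 0 CPM in MEL1 S6, after 1.21, 1.59, 3.70 and 3.05 CPM at S0. Over both lines ELAVL2 was not called from S0 to S6 (0.42 ± 1.05, adjusted p = 0.777, edgeR).

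MBNL2, a muscleblind protein that shifts exon choice during differentiation, was near the detection limit at S0, with 3, 3, 0 and 2 input reads. In CPM it was 0.725, 0.682, 0 and 0.435 at S0, 3.15, 4.12, 2.50 and 4.51 at S3, 6.17, 9.19, 5.88 and 7.38 at S4, and 5.50, 10.4, 8.22 and 11.3 at S6. The S3, S4 and S6 libraries of both lines all lay above the S0 libraries. The fitted rise was 2.92 ± 0.53 from S0 to S3 (edgeR, adjusted p = 0.000484) and 4.21 ± 0.52 from S0 to S6 (adjusted p = 1.39e-05), and both lines gave a called rise (3.43 in H1 and 5.34 in MEL1 from S0 to S6). Pooled over libraries, the 128 S6 reads against 8 S0 reads gave an 18.8-fold ratio (95% exact counting interval 9.25 to 44.5, which covers counting error only).

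**Figure D1:**
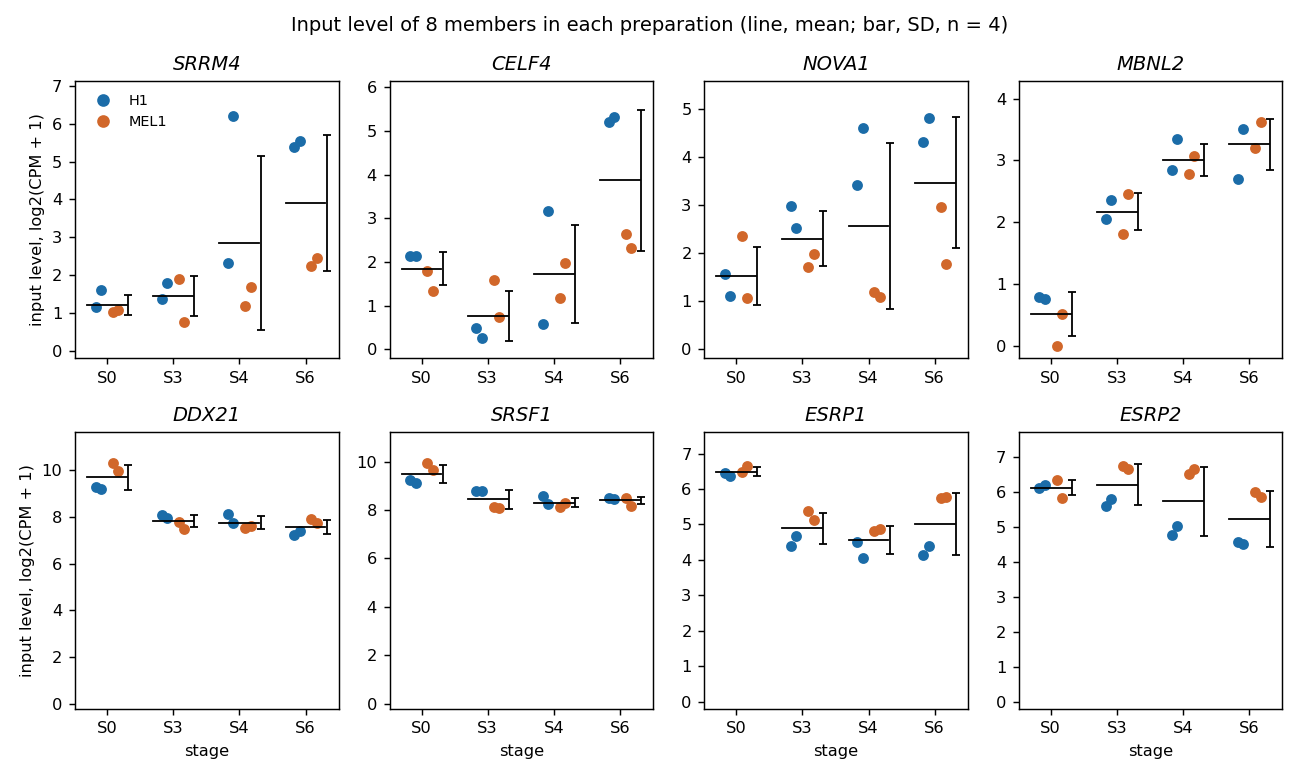
Input level of 8 member genes in each of the 16 preparations, on a vertical axis of log2(CPM + 1), by stage along the horizontal axis and with H1 and MEL1 marked apart; each point is 1 input library, and line and bar give mean and SD (n = 4). CELF4 is highest in both H1 S6 libraries, SRRM4 and NOVA1 are high there and in H1 S4 replicate 2, MBNL2 leaves the floor at S3 in both lines, and DDX21, SRSF1 and ESRP1 are highest at S0.

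The start-site windows of these 4 genes are shown because the input of these restricted regulators rose from S0 to S6, while of the 4 only MBNL2 was called at S3. They come from RefSeq (GRCh38.p14), run from 250 bases before to 50 after the start site on the gene's own strand, and carry in capitals each E-box, the letters CANNTG that basic helix-loop-helix factors bind. SRRM4 lies on the plus strand (chr12:118981291-118981590), CELF4 on the minus strand (chr18:37485743-37486042), NOVA1 on the minus strand (chr14:26597984-26598283, its first of 3 windows) and MBNL2 on the plus strand (chr13:97141584-97141883, its first of 2).
SRRM4: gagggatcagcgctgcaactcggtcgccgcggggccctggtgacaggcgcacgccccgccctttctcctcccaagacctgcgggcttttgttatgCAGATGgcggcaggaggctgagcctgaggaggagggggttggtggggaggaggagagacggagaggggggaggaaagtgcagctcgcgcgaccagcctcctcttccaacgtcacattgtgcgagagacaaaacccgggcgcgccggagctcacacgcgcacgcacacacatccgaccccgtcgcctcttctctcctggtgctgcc
CELF4: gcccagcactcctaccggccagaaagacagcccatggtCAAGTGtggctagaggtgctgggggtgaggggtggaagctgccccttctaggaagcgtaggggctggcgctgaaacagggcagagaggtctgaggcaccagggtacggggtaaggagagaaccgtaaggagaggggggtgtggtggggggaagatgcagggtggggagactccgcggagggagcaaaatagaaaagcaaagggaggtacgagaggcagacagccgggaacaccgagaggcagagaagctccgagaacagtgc
NOVA1: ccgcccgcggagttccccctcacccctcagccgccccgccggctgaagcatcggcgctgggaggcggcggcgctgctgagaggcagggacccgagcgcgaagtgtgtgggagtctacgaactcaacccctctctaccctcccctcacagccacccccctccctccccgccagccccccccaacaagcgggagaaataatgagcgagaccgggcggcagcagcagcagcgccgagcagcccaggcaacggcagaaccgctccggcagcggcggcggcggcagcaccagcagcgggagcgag
MBNL2: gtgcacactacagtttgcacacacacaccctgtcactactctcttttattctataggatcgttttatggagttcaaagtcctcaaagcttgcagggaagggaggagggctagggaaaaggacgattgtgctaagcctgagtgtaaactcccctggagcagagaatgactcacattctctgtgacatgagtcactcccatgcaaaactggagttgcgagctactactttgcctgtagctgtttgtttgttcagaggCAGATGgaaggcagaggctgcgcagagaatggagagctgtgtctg
SRRM4, CELF4 and MBNL2 each held 1 E-box, and this NOVA1 window held none. Of the windows not printed, the second of NOVA1 held none, the third 2 and the other of MBNL2 2. An E-box on either strand occurred in 68.7% of all 35116 windows and in 60.5% of the 157 windows of the 114 members that have one. The left and right parts of the REST element, TTCAGCACC and GGACAGCGC, searched on both strands, were in none of the 4 sequences, in 0.376% and 0.581% of all windows and in 0.637% and 0.637% of the members' windows. A GC-box core CCGCCC was in 45.0% of all and 58.6% of the members' windows and a CCAAT box in 34.6% and 48.4%.

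Neuronal markers were also higher at S6. The 4 of 10 listed neuronal markers that had counts (STMN2, NEFL, NEFM and GAP43) summed to 113, 110, 133 and 72.7 CPM at S0, 70.0, 82.8, 0.25 and 0.226 CPM at S3, 255, 257, 106 and 88.5 CPM at S4 and 3640, 3510, 519 and 540 CPM at S6, and the other 6 had no merged peak. From S0 to S3 GAP43, NEFL and NEFM fell, where MBNL2 rose, and all 4 rose from S0 to S6. The sum was highest in both H1 S6 libraries, as CELF4 was, and it was nearly equal in the 2 H1 S4 libraries, where SRRM4 was at 3.95 and 73.2 CPM. The part of these genes' change that goes with neuronal-marker cells was not tested, and in such bulk samples more cells of a type and more RNA per cell cannot be told apart.

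The epithelial splicing regulators ESRP1 and ESRP2 were lower at S6 than at S0. ESRP1 measured 87.2, 81.2, 89.0 and 99.5 CPM at S0, 19.9, 24.5, 40.5 and 33.6 CPM at S3, 21.5, 15.5, 27.3 and 28.4 CPM at S4, and 16.7, 20.1, 52.7 and 53.6 CPM at S6. All S3, S4 and S6 libraries lay below all S0 libraries. ESRP1 fell by 1.66 ± 0.24 from S0 to S3 (edgeR, adjusted p = 6.75e-05) and by 1.49 ± 0.24 from S0 to S6 (adjusted p = 0.000161). From S0 to S6 H1 changed by -2.20 and MEL1 by -0.83, the latter under the 2-fold minimum.

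ESRP2 measured 69.1, 73.2, 80.4 and 56.1 CPM at S0, 47.7, 55.2, 107 and 101 CPM at S3, 26.2, 31.5, 90.8 and 99.6 CPM at S4, and 22.7, 21.8, 62.7 and 56.9 CPM at S6. The lines moved apart: H1 was lower at each later stage, while MEL1 was higher at S3 and S4 and back at its S0 level at S6. ESRP2 fell by 1.01 ± 0.29 from S0 to S6 over both lines (edgeR, adjusted p = 0.0102), at the edge of the 2-fold minimum, with overlapping groups, and 10 of 25 alternative settings lost the call, among them the fit without H1 S4 replicate 2 (-1.0, just under the minimum). Epithelial markers, 6 of 8 with counts, summed to 1830 and 1840 CPM in H1 S6 and 9800 and 10800 CPM in MEL1 S6, after 2360 to 2950 CPM at S0. KRT19 made up 7800 and 8700 CPM of the MEL1 S6 sums, and from S0 to S6 KRT19 was called higher, CLDN6 lower and the other 4 neither. The markers' part in the ESRP difference was not tested.

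The remaining regulators of this group were closer to level. RBFOX2 measured 302, 311, 245 and 225 CPM at S0 and 385, 390, 351 and 392 CPM at S6 (0.48 ± 0.24, edgeR, adjusted p = 0.126). ELAVL1, the ubiquitous member of its family, measured 17.4, 19.6, 28.0 and 27.0 CPM at S0 and 15.3, 18.3, 6.35 and 11.7 CPM at S6 (-0.88 ± 0.30), CELF1 changed by -0.64 ± 0.20 and KHDRBS1 by -0.43 ± 0.15. None of the 3 reached the 2-fold minimum. The IGF2BP genes did not either: IGF2BP1 measured 194, 199, 263 and 269 CPM at S0 and 152, 160, 140 and 168 CPM at S6 (-0.56 ± 0.15), and IGF2BP2 408, 408, 352 and 301 CPM at S0 and 375, 359, 457 and 500 CPM at S6 (0.21 ± 0.16). In H1 S4 replicate 2 IGF2BP1 was at 156 CPM, against 215 to 226 CPM in the other S4 libraries.

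Over all 133 members, 5 rose and 28 fell from S0 to S6 under the rule of an adjusted p under 0.1 and at least a 2-fold change. Of all 7973 genes tested, 17.5% rose and 13.8% fell, so the members' share of rises was below and their share of falls (21.1%) above the share over all genes. The median change of the members was -0.46 on the log2 scale, against 0.03 over all genes. The members' fall was spread over families: 2 of 12 SR and SR-related genes fell and 1 rose (median -0.33), 4 of 21 hnRNP and PTB genes fell (-0.48), 2 of 17 core spliceosome genes (-0.46), 6 of 26 RBM genes (-0.51), 6 of 26 DEAD-box genes (-0.39), 4 of 12 DEAH-box genes (-0.59) and 2 of 7 cleavage and polyadenylation genes, where 1 rose (-0.47). In the cell-type-restricted group 3 of 10 rose and 2 fell (-0.01), and neither IGF2BP gene was called (-0.17). Of 80 further splicing and RNA-processing genes outside the families, 38 had counts, and 1 rose (MSI1, 1.50 ± 0.33) and 11 fell, among them the Sm protein gene SNRPB (-1.25 ± 0.16) and the SR protein kinase gene SRPK1 (-1.04 ± 0.21).

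**Figure D2:**
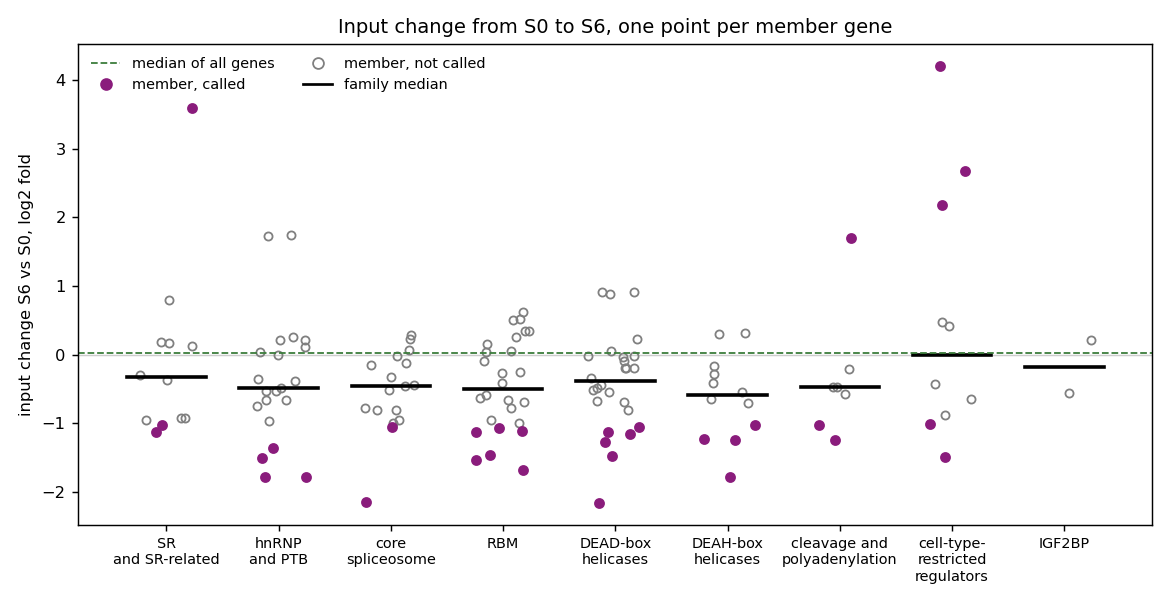
Change in input from S0 to S6 for each of the 133 members, grouped by family; the axis gives the log2 fold change, filled points passed the test and the 2-fold minimum, bars are family medians and the dashed line is the median of all genes. Most points of every family but the cell-type-restricted regulators and IGF2BP lie below 0, and the rises stand in SRRM4, CELF4, NOVA1, MBNL2 and CPSF1.

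The stages between were compared next. From S0 to S3, 5 members rose and 14 fell, against 15.0% and 13.8% of all genes, with a member median of -0.28 and -0.02 over all genes. From S3 to S4 no member was called in either direction by edgeR, against 1.49% and 0.351% of all genes; 14 members (10.5%) had an unadjusted p under 0.05, against 13.5% of all genes, and DESeq2 called 1, against 3.73%. From S4 to S6, CELF4 rose and SRSF6 fell, against 2.85% and 2.33% of all genes. The S3 and S6 comparisons share the same S0 libraries.

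Among the helicases, DDX21 had the lowest S6 level relative to S0. DDX21 is a nucleolar DEAD-box helicase that takes part in ribosomal RNA transcription and processing. It measured 615, 588, 1260 and 985 CPM at S0, 267, 243, 220 and 176 CPM at S3, 279, 212, 184 and 195 CPM at S4, and 150, 165, 239 and 213 CPM at S6. All later libraries lay below all S0 libraries. DDX21 fell by 1.89 ± 0.25 from S0 to S3 (edgeR, adjusted p = 3.4e-05) and by 2.16 ± 0.25 from S0 to S6 (adjusted p = 8.65e-06), in both lines (-1.94 in H1 and -2.31 in MEL1 from S0 to S6) and in each of 25 alternative settings. Both of its RefSeq windows are shown as the counterpart to the 4 rising genes, on the plus strand at chr10:68955920-68956219 and chr10:68956397-68956696, with E-boxes in capitals.
DDX21 window 1: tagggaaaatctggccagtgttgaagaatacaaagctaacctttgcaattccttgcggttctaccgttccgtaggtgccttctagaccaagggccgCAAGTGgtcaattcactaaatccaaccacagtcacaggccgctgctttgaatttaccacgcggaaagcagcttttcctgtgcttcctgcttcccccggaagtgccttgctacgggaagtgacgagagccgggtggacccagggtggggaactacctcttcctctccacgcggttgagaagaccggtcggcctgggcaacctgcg
DDX21 window 2: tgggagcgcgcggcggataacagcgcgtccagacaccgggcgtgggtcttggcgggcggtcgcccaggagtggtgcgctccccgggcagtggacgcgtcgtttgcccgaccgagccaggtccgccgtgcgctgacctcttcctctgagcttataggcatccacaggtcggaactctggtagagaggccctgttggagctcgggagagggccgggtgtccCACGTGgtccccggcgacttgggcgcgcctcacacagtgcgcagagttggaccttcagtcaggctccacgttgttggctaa
The E-box of the other window, CACGTG, lies 31 bases before the start site and is the form that MYC and other factors bind. CACGTG, a subset of CANNTG, was in 7.26% of all windows and 11.5% of the members' windows on either strand.

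DHX33, a DEAH-box helicase linked to ribosomal DNA transcription, measured 69.6, 69.6, 117 and 114 CPM at S0 and 31.6, 28.7, 35.5 and 16.1 CPM at S6, with no overlap between the stages. It fell by 1.78 ± 0.32 (edgeR, adjusted p = 0.000442). DDX6, which represses translation and promotes decay of mRNA, measured 67.4, 75.5, 191 and 139 CPM at S0 and 46.5, 49.4, 38.1 and 40.7 CPM at S6. It fell by 1.48 ± 0.35 (adjusted p = 0.00306, edgeR), with -2.07 in MEL1 and -0.58 in H1, the latter under the 2-fold minimum. DDX11, DDX20, DDX39A and DDX39B (export helicases), DHX29, DHX36 (a G-quadruplex resolvase) and DHX57 were also called lower at S6. DHX57 was lower in MEL1 alone (-2.30, against 0.02 in H1). The falls of DDX20, DDX39A, DDX39B, DHX29 and DHX36 were also deeper in MEL1, unlike that of DDX11. DDX20 went from 68.4 and 67.1 CPM at S0 to 48.1 and 44.3 CPM at S6 in H1. In MEL1 it went from 101 and 77.0 CPM to 26.1 and 31.1 CPM. DDX46, a helicase of early spliceosome assembly, rose from 15.9, 12.1, 8.02 and 8.49 CPM at S0 to 18.9, 20.4, 31.0 and 31.1 CPM at S3 (1.13 ± 0.31, edgeR, adjusted p = 0.00922). The DDX46 change was 1.91 in MEL1 and 0.49 in H1, the latter not called, and the call over both lines was lost without either MEL1 S0 library (0.92 and 0.94, under the 2-fold minimum). DDX5 and DDX17, a pair of closely related DEAD-box coregulators of splicing and transcription, were not called from S0 to S6, and DDX5 measured 800, 767, 1260 and 1030 CPM at S0 and 689, 745, 1330 and 1420 CPM at S6.

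Proliferation markers were also lower after S0. The 10 measured markers of 11 summed to 2620, 2580, 3140 and 2860 CPM at S0, 1990, 2040, 840 and 730 CPM at S3 and 1530, 1510, 1210 and 1170 CPM at S6. At S3 both the sum and DDX21 were lower in MEL1 than in H1, while at S6 the sum was lower and DDX21 higher in MEL1. The part of dividing cells in the members' changes was not tested.

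In the SR family, SRSF1, a founding SR protein that binds exonic enhancers, measured 607, 557, 980 and 797 CPM at S0 and 357, 353, 357 and 287 CPM at S6. All S6 libraries lay below all S0 libraries, and it fell by 1.13 ± 0.22 (edgeR, adjusted p = 0.000643). SRSF6 measured 161, 156, 298 and 257 CPM at S0, 544, 556, 241 and 268 CPM at S3, 479, 343, 293 and 263 CPM at S4, and 99.8, 109, 146 and 110 CPM at S6. H1 and MEL1 thus differed at S3 and had the same order of level at S6. SRSF6 fell by 1.55 ± 0.31 from S4 to S6 (adjusted p = 0.00874, edgeR), and did so in both lines. SRSF10 was also called lower from S0 to S6 (-1.02 ± 0.31). SRRM3 fell from 10.4, 10.2, 8.02 and 8.49 CPM at S0 to 1.77, 1.85, 0.751 and 1.35 CPM at S3 (-2.70 ± 0.37, edgeR, adjusted p = 4.4e-05) and stood at 6.39, 5.51, 4.86 and 2.82 CPM at S6. Every SRRM3 library at S6 lay above every S3 library and below every S0 library. SRRM2, a scaffold protein of nuclear speckles, was at 3120, 3090, 2160 and 2140 CPM at S0 and 2390, 2420, 3430 and 3130 CPM at S6 (0.13 ± 0.19), with the lines in opposite order, and SRRM1 held 0.373 to 4.20 CPM over the libraries.

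The hnRNP genes that were called had lower levels after S0. HNRNPAB measured 628, 605, 608 and 545 CPM at S0 and 248, 238, 164 and 201 CPM at S6. It fell by 1.51 ± 0.17 (edgeR, adjusted p = 6.89e-06), with groups far apart in both lines. HNRNPA3 measured 1130, 1060, 2040 and 1580 CPM at S0, 901, 942, 403 and 349 CPM at S3 and 649, 630, 602 and 457 CPM at S6. It fell by 1.36 ± 0.30 from S0 to S6 (adjusted p = 0.00173, edgeR), with -1.77 in MEL1 and -0.78 in H1, the latter under the 2-fold minimum. HNRNPH3 measured 26.3, 31.1, 39.3 and 48.3 CPM at S0 and 18.5, 21.2, 7.47 and 6.05 CPM at S6 (-1.78 ± 0.50, edgeR, adjusted p = 0.00901), with -2.69 in MEL1 and -0.54 in H1, the latter not called (adjusted p = 0.21). HNRNPA1, which represses exons by binding splicing silencers, changed by -0.97 ± 0.22, just short of the 2-fold minimum. HNRNPC, described as a reader of m6A-opened structures, held only 3, 10, 9 and 26 input reads at S0 and 1, 6, 1 and 2 at S6, and its call (-1.78 ± 0.63, adjusted p = 0.0319) was lost without MEL1 S0 replicate 2. PTBP1, a repressor of neuronal exons, measured 258, 253, 163 and 211 CPM at S0 and 146, 152, 94.1 and 133 CPM at S6 (-0.75 ± 0.18, edgeR, adjusted p = 0.00354, under the 2-fold minimum). PTBP3 was lower at S3 (-1.13 ± 0.35, adjusted p = 0.0181) and not called at S6. Its S3 change was -1.84 in MEL1 and -0.34 in H1, the latter not called, and the call over both lines was lost without MEL1 S0 replicate 1 or MEL1 S3 replicate 2.

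In the core spliceosome group, SF3B3, a subunit of the branch-site recognition complex, measured 7.25, 9.55, 6.37 and 8.71 CPM at S0 and 4.97, 2.87, 4.48 and 2.82 CPM at S6. All S6 libraries lay below all S0 libraries, and it fell by 1.05 ± 0.39 (edgeR, adjusted p = 0.0389), while the U2 auxiliary factor U2AF2 went from 360, 367, 303 and 323 CPM at S0 to 350, 338, 371 and 353 CPM at S6.

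Of the RBM genes, RBM15B rose and several others fell. RBM15B, an adaptor of the m6A writer complex, measured 383, 382, 321 and 342 CPM at S0, 775, 780, 744 and 736 CPM at S3, 717, 655, 593 and 624 CPM at S4 and 495, 516, 574 and 606 CPM at S6. Its replicates and lines stayed close together, and all later libraries lay above all S0 libraries. It rose by 1.09 ± 0.13 from S0 to S3 (edgeR, adjusted p = 1.6e-05), while the S0 to S6 change of 0.62 ± 0.13 was under the 2-fold minimum. RBM4B was at the edge of the 2-fold minimum from S0 to S3 (1.01 ± 0.29, with 1.31 in H1 and 0.77 in MEL1), and 6 of 25 alternative settings lost its call, among them DESeq2 and another normalisation. The other adaptor, RBM15, measured 17.2, 14.3, 14 and 17.4 CPM at S0 and 16.3, 12.6, 5.6 and 8.87 CPM at S6, with overlapping groups (-0.63 ± 0.37, edgeR, adjusted p = 0.186). RBM25, a U1-associated regulator, measured 142, 139, 188 and 119 CPM at S0 and 42.8, 34.6, 72.5 and 70.2 CPM at S6 (-1.46 ± 0.22), and RBM17, an early spliceosome protein, 6.76, 7.28, 7.40 and 4.57 CPM at S0 and 2.84, 2.43, 2.24 and 1.21 CPM at S6 (-1.68 ± 0.48, adjusted p = 0.0112, edgeR). RBMX, RBM26 and RBM34 were called lower too, as was the near-identical copy RBMXL1. The RBM26 call was lost in 7 of 25 alternative settings, among them the replicate block, H1 alone and without any 1 of 4 libraries (both of MEL1 S0 and both of H1 S6).

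CPSF1, the largest subunit of the cleavage and polyadenylation specificity factor, was low at S0 (1.93, 2.05, 0.617 and 2.39 CPM) and higher at S3 (6.11, 6.59, 7.51 and 6.09 CPM), S4 (6.91, 5.49, 5.88 and 4.43 CPM) and S6 (6.57, 3.53, 5.98 and 6.86 CPM). No later library overlapped S0. It rose by 1.90 ± 0.38 from S0 to S3 (edgeR, adjusted p = 0.00106) and by 1.70 ± 0.39 from S0 to S6 (adjusted p = 0.00238). CPSF6 and CPSF3, of the same machinery, fell from S0 to S6.

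The lines were compared next, since several members moved differently in H1 and MEL1. Over all stages, 6 members were higher and 4 lower in H1 than in MEL1, against 10.2% and 8.85% of all genes. SRRM4 was higher in H1 by 2.48 ± 0.68 (edgeR, adjusted p = 0.00924), and by 1.60 without H1 S4 replicate 2. NOVA1 was higher by 1.63 ± 0.51 (adjusted p = 0.0192), and by 1.38 without that library (adjusted p = 0.0319, edgeR), and ESRP2 was lower by 1.02 ± 0.20. HNRNPH3, with 12 to 222 input reads per library, was higher in H1 by 1.07 ± 0.36. RBM17 and PRPF18 were higher and RBMS2 and DHX37 lower in H1, and none of these 4 passed 50 input reads in any library. The calls of RBM17 and HNRNPH3 each held in 15 of 19 alternative settings and that of ESRP2 in 13. Without H1 S4 replicate 2 the differences of RBM17 and ESRP2 were 0.99 and -0.97, under the 2-fold minimum. HNRNPA1L2 (1.26) and HNRNPA1L3 (-2.90 ± 0.57) differed in opposite directions and are near-identical copies of HNRNPA1. Line and the day or batch of handling cannot be told apart.

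The change from S0 to S3 differed between the lines in 33 members, more positive in H1 in 25 and less positive in 8, against 17.5% and 16.5% of all genes. HNRNPH3 changed by 0.00 in H1 and -2.86 in MEL1 (difference 2.85 ± 0.50, edgeR, adjusted p = 0.000145), HNRNPA3 by -0.25 and -2.27, DDX6 by -0.54 and -2.46 and RBM26 by 0.13 and -2.56, so that the S0 to S3 fall of these 4 genes was called in MEL1 and not in H1. SRSF6 was the opposite case, with a called rise of 1.80 in H1 and -0.13 in MEL1 (difference 1.92 ± 0.23, adjusted p = 1.37e-06). RBFOX2 differed by -1.07 ± 0.34 (adjusted p = 0.0163), which rested on MEL1 S3 replicate 2, the highest RBFOX2 library at 745 CPM against 311 to 333 CPM in the other S3 libraries, and the difference was -0.31 without it.

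ELAVL2 had 0 reads in both MEL1 S3 libraries, so its fitted line difference at S3 (6.97 ± 2.28) depends on the prior count. Against a floor of 3 counts over both libraries, MEL1 was at least 9.51-fold lower at S3 than at S0, while H1 was near level with a ratio of 1.07 (95% exact counting interval 0.47 to 2.51). The hepatic markers AFP, APOA1 and APOB, 3 of 5 listed, summed to 25800 and 22600 CPM in the MEL1 S3 libraries and to 306 and 310 CPM in those of H1, and the neuronal markers to 0.25 and 0.226 CPM against 70.0 and 82.8 CPM. The hepatic sum was higher still in the MEL1 S4 libraries, at 42400 and 46600 CPM, against 144 and 103 CPM in H1 S4. In MEL1 S6 it was 1500 and 1490 CPM, against 71.6 and 64.8 CPM in H1 S6. Whether such cells take part in the S3 line differences of the members, or in their S4 peak changes below, was not tested.

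The change from S0 to S6 differed between the lines in 16 members toward a higher value in H1 and in 5 toward a lower one, against 11.4% and 13.7% of all genes. NOVA1 differed by 3.07 ± 0.89 (edgeR, adjusted p = 0.0132), a call lost without MEL1 S0 replicate 1, and DHX57 by 2.32 ± 0.49 (adjusted p = 0.00121). CELF4 differed by 2.25 ± 0.98 (adjusted p = 0.0931, edgeR), and 9 of 20 alternative settings, each leaving out 1 library, lost the call (highest adjusted p 0.312). For ELAVL2, with 60 and 41 reads in H1 S6 and 4 and 0 in MEL1 S6, the fitted difference of 4.88 ± 1.39 (adjusted p = 0.0128) became 9.70 without MEL1 S6 replicate 1, and the pooled S6 level was 12.8-fold higher in H1 (95% exact counting interval 4.85 to 47.9). SRRM4 differed by 2.78 ± 1.57, which was not called (adjusted p = 0.197, edgeR), although its S6 levels in H1 were far above those in MEL1. ESRP1 and ESRP2 differed by -1.37 ± 0.27 and -1.48 ± 0.26, with the deeper fall in H1.

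**Figure D3:**
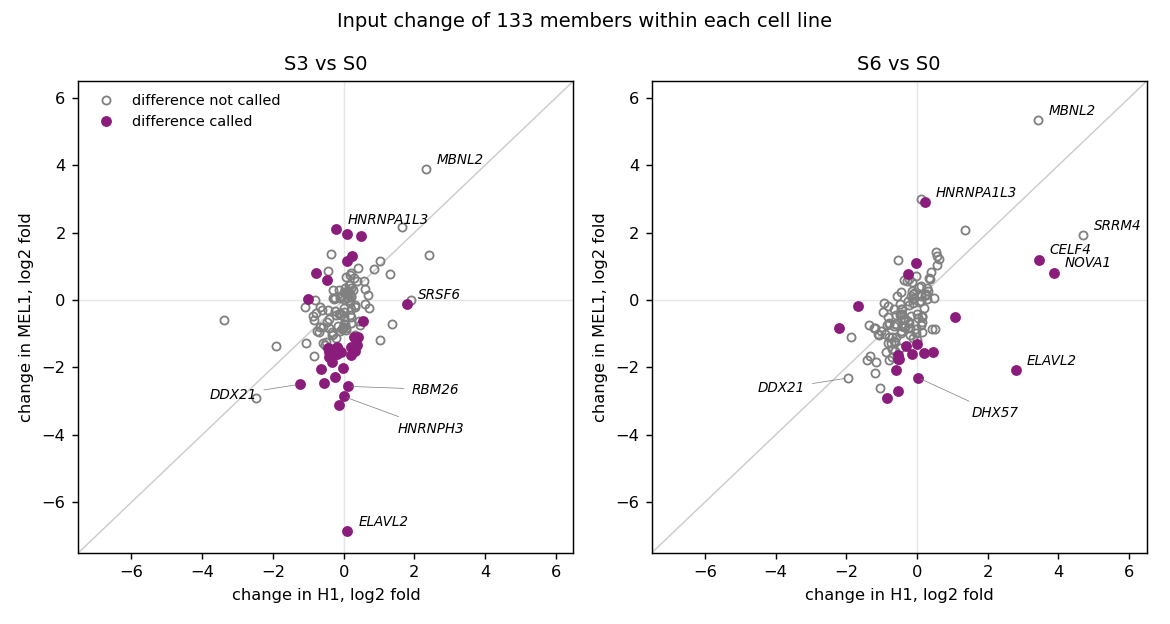
Log2 fold change of each member's input in H1 (horizontal axis) and MEL1 (vertical axis), for S3 against S0 and for S6 against S0; each point is 1 gene. Filled points are genes whose change differed between the lines by the test, and the diagonal marks equal changes. HNRNPH3 and RBM26 sit near 0 for H1 and far below 0 for MEL1 at S3, and SRRM4, NOVA1 and CELF4 sit further from 0 in H1 than in MEL1 at S6.

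The IP libraries ask where the members carry m6A. Enrichment is the log2 difference of IP and input in a merged peak, and a peak was called enriched or depleted with the same thresholds as above. Peak positions below are the numbers the table gives within each gene, in bases of the 50-bp bin scheme, and no chromosome coordinates or peak sequences come with them. Member peaks were depleted more often than enriched at every stage. At S0, 86 of 493 were enriched and 238 depleted, against 30.7% and 24.9% of all peaks, at S3 84 and 289, against 30.3% and 31.0%, at S4 60 and 281, against 20.8% and 32.1%, and at S6 74 and 301, against 28.4% and 34.6%. The members' median enrichment was -1.20, -2.03, -1.89 and -2.24 at the 4 stages, against 0.28, 0.07, -0.30 and -0.12 over all peaks. Of the 133 genes, 52 had at least 1 enriched peak at S0 (39.1%) and 48 at S6 (36.1%), against 57.2% and 57.0% of all genes. Input depth was similar in both kinds of called member peaks, with a median of 81.7 reads per library in the 210 depleted and 74.1 in the 43 enriched at every stage, and lower in the others (26.4). Over all peaks these medians were 69.2, 36.4 and 20.2 reads, and the part of depth in the shares was not tested.

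RBM genes had the highest share of enriched peaks at S0, with 32% of 103 peaks enriched and 25.2% depleted, and 23.3% and 44.7% at S6. DEAD-box genes had 16% enriched and 44.7% depleted at S0, and DEAH-box genes 18.4% and 21.1%. The hnRNP and PTB genes had 7.79% enriched and 68.8% depleted at S0 and 5.19% and 76.6% at S6, and the SR and SR-related genes 16.7% and 61.7% at S0. In IGF2BP1 and IGF2BP2 no peak was enriched and 94.7% of 19 were depleted at both stages. These counts are over peaks that share genes and libraries, so they are a description.

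**Figure D4:**
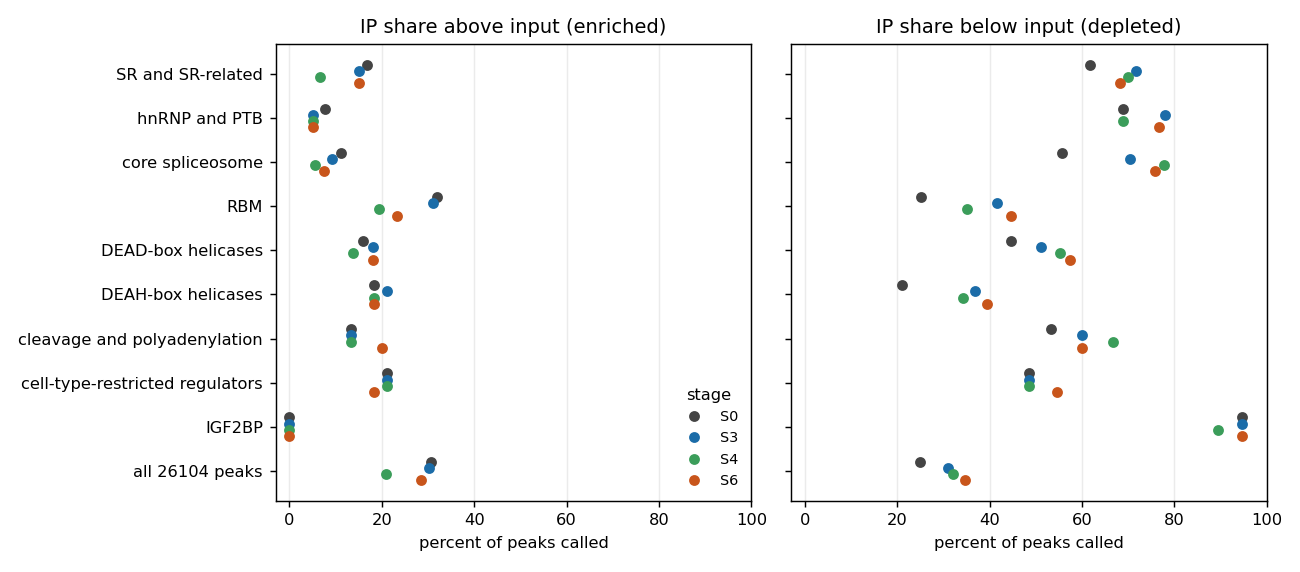
Percent of merged peaks enriched and depleted in IP over input, by family and stage, beside all 26104 peaks. RBM genes come closest to all peaks in their share of enriched peaks at S0, and hnRNP, PTB and IGF2BP genes have the lowest.

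In 33 member genes, 43 peaks were enriched at every stage (8.72% of member peaks, against 14.9% of all peaks). By the mean of its 4 stage values (3.67) the highest was peak 4819 of RBM12B, an RBM-family protein gene, with 11246, 14465, 9397 and 7642 IP reads at S0 against 365, 393, 244 and 333 input reads, and 11781, 16073, 10630 and 8873 IP reads at S6 against 366, 325, 148 and 120. Its enrichment was 3.24, 3.65, 3.95 and 3.84 at S0, S3, S4 and S6. The writer adaptor RBM15 carried peaks at 2401 (3.28, 3.58, 1.78 and 3.50), 3501 and 3201, each enriched at every stage. HNRNPLL peak 3524 (3.64, 3.76, 1.45 and 4.14), DHX36 peak 3613 (2.93, 3.54, 1.81 and 3.54) and RBM48 peak 851 (3.10, 3.14, 1.94 and 3.11) followed. RBM15 peak 2401 and the HNRNPLL, DHX36 and RBM48 peaks had their lowest value at S4. There the input of H1 replicate 2 held 70 reads in RBM15 peak 2401 against 12 in replicate 1, and 286 in DHX36 peak 3613 against 70.

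Among the cell-type-restricted genes, NOVA1 peak 4947 had an enrichment of 4.02, 2.47, 2.92 and 1.64, MBNL2 peak 651 of 2.18, 2.15, 1.71 and 2.98 and ESRP2 peak 64 of 2.74, 2.39, 1.46 and 2.35 at S0, S3, S4 and S6. All 3 were called enriched at every stage, although the S6 call of the NOVA1 peak was lost by DESeq2 and without either H1 S6 replicate (highest adjusted p 0.159). SRRM4 peak 4251 was enriched at S0, S3 and S6 (3.93, 4.23 and 3.93) but not called at S4 (0.51), where the log2 ratios of IP to input were 2.46, -1.51, 3.38 and 2.94. The single negative value was that of H1 replicate 2, and without it the S4 enrichment was 3.56 and was called. At the other end, HNRNPA1 peak 2551 was depleted at every stage (-2.64, -2.67, -3.65 and -2.92), as was IGF2BP1 peak 51 (-2.05, -2.75, -2.77 and -2.18).

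Between stages, few member peaks changed in IP relative to input from S0 to S3, and more in the steps into and out of S4. From S0 to S3, 0 gained and 1 lost by edgeR, against 0.0306% and 0.0192% of all peaks, with 68 member peaks (13.8%) at an unadjusted p under 0.05, against 6.19% of all peaks, and 14 calls by DESeq2 (2.85%), against 0.652%. From S3 to S4, 12 gained and 27 lost, against 0.751% and 5.85%. From S4 to S6, 28 gained and 27 lost, against 5.31% and 2.26%. From S0 to S6, 2 gained and 10 lost, against 0.0766% and 1.18%. With IP and input normalised separately, the median of all peaks moved by 0.35 from S3 to S4 and by -0.23 from S4 to S6, and the calls became 15 gains and 13 losses (against 0.850% and 1.92% of all peaks), and 22 gains and 33 losses (against 3.39% and 3.06%). Without H1 S4 replicate 2, 22 of the 39 peaks called from S3 to S4 and 35 of the 55 called from S4 to S6 stayed called.

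The largest change was in RBFOX2, whose protein binds GCATG motifs in introns beside regulated exons. In its peak 7865 the IP reads were 278, 374, 230 and 209 at S0, 71, 159, 55 and 71 at S3, 5730, 8126, 25643 and 15485 at S4 and 110, 191, 428 and 424 at S6. The 4 S4 libraries of both lines stood far above all others, including the shallow MEL1 libraries, while input in the same peak was 430, 398, 255 and 1210 reads at S3 and 285, 419, 124 and 136 at S4. The peak gained by 9.74 ± 0.96 from S3 to S4 (edgeR, adjusted p = 6.45e-07) and changed by -7.30 ± 0.89 from S4 to S6 (adjusted p = 4.28e-05).

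RBFOX2 peak 8715 followed the same course, with 83, 152, 104 and 140 IP reads at S3, 2880, 4822, 25006 and 17422 at S4 and 142, 224, 429 and 309 at S6 (8.69 ± 0.93, then -7.09 ± 0.88). In peak 5365 the IP reads were 324, 405, 268 and 269 at S3, 986, 1475, 5428 and 5245 at S4 and 545, 709, 359 and 239 at S6 (5.30 ± 0.84, then -4.92 ± 0.83). The MEL1 S4 libraries were the highest in all 3 peaks. All member peaks together held 99193 and 78640 reads in these 2 IP libraries, so these RBFOX2 peaks took a large part of them. Those reads were 3.99 and 3.31% of the libraries, against 1.73 to 2.72% in the other IP libraries. What set so large a share in 1 gene was not tested. The 3 peaks were called in both steps under every alternative setting, including without both MEL1 S4 preparations. The remaining 2 RBFOX2 peaks, 5015 and 9415, held 5 to 63 and 8 to 39 IP reads at S4 and were not called. The input of the whole gene changed by -0.56 ± 0.25 from S3 to S4 (edgeR, adjusted p = 0.319). The MEL1 S3 replicate 2 input that stood apart was that of peaks 7865 and 8715, at 304 and 347 CPM against 71.3 to 89.6 and 136 to 147 CPM in the other S3 libraries.

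**Figure D5:**
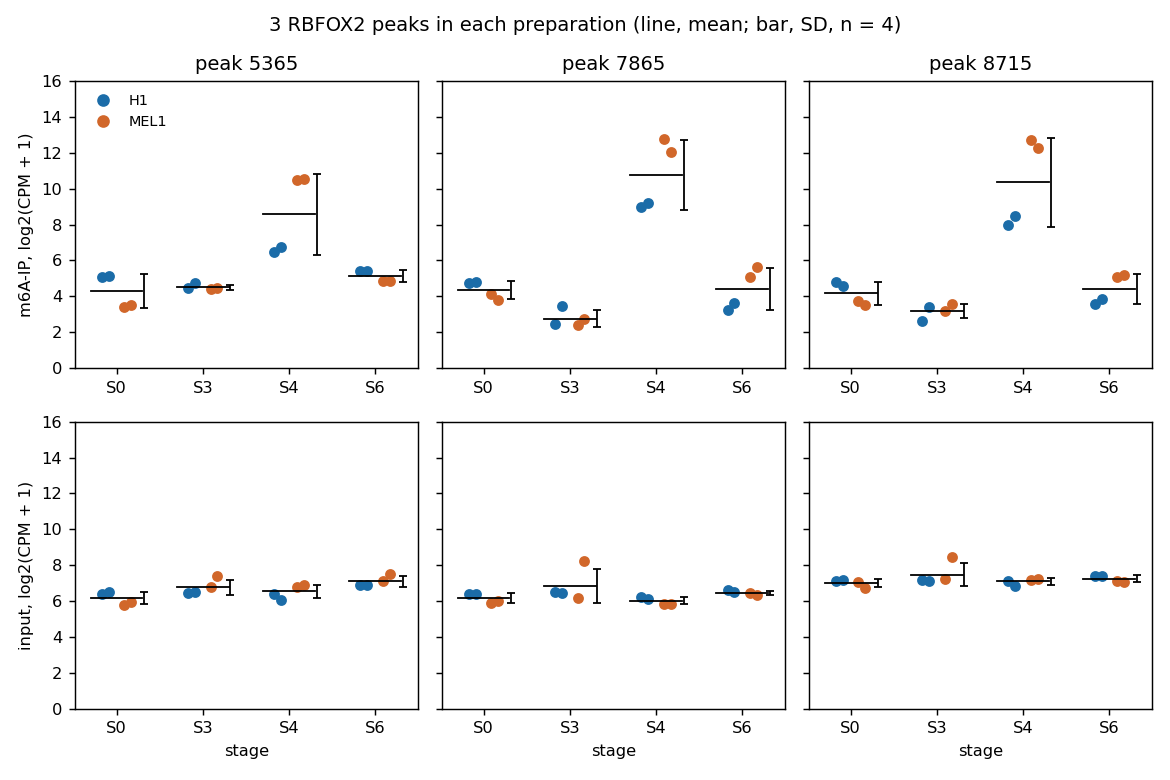
Level of IP (upper row) and input (lower row) as log2(CPM + 1) in RBFOX2 peaks 5365, 7865 and 8715 in each preparation, by stage; each point is 1 library, and line and bar give mean and SD (n = 4). The S4 IP points lie above those of all other stages in each peak, while the S4 input points lie no higher than those of S3 in peak 7865.

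Other member peaks lost their IP reads at S4. Of the 493, 16 (3.25%) had 0 IP reads in all 4 S4 libraries, against 0 at S0, 2 at S3 and 3 at S6, and 1.77% of all peaks did so at S4, against 0.0651 to 0.345% at the other stages. Mitochondrial transcripts took 0.0465 and 0.051% of the reads in the H1 S4 IP libraries, against 0.388 to 2.25% in the other IP libraries. In the S4 input libraries they took 15.4 to 17.7%. The part of such a library-wide difference in the losses below was not tested. HNRNPC peak 5310 held 17, 29, 18 and 23 IP reads at S0, 27, 36, 16 and 22 at S3, 0 in all 4 S4 libraries and 26, 24, 11 and 5 at S6. Its input was 4, 11, 5 and 7 reads at S4. Against a floor of 3 counts over the group, the IP level was at least 18.9-fold lower at S4 than at S3 and at least 13.8-fold lower than at S6 (edgeR test of IP relative to input, adjusted p = 0.00393 and 0.00177). DDX51 peak 466, of a DEAD-box helicase of ribosome biogenesis, had 22, 18, 5 and 9 IP reads at S3, 0 in all 4 S4 libraries and 26, 23, 35 and 16 at S6, at least 10.1-fold lower at S4 than at S3 (adjusted p = 0.0248, lost without H1 S4 replicate 1). PRPF38B peak 3551, of a spliceosome activation protein, held 51, 60, 40 and 28 IP reads at S3 and 0, 2, 0 and 0 at S4, a 50.4-fold ratio (95% exact counting interval 13.7 to 419), with input of 39, 50, 28 and 22 reads at S3 and 45, 67, 21 and 17 at S4. SRSF10 peak 2978 held 27, 52, 19 and 32 IP reads at S3, 1, 0, 0 and 2 at S4 and 24, 29, 41 and 8 at S6, a 24.4-fold ratio of S3 to S4 (8.16 to 120), whose call was lost without H1 S4 replicate 2 (adjusted p = 0.15, edgeR). DHX57 peak 6636 was lower at S4 than at S3 (-5.21, adjusted p = 0.0337), and SRRM2 peak 2601 (3.53) and RBM6 peak 6401 (3.46) gained and were lower again at S6. These S3 to S4 calls were lost without H1 S4 replicate 1 for DHX57, without MEL1 S4 replicate 1 for RBM6 and without any 1 of 5 libraries for SRRM2 (highest adjusted p 0.233, 0.127 and 0.174, edgeR). HNRNPLL peak 3524, RBM15 peak 2401 and DHX36 peak 3613 were also called lower at S4 than at S3 (-2.31, -1.80 and -1.73), and in each of them H1 S4 replicate 2 had more input than replicate 1. Without that library the changes were -2.06, -1.04 and -1.24, and none of the 3 was called (edgeR, adjusted p = 0.14, 0.366 and 0.124).

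Between the ends of the differentiation, RBM17 peak 4551 gained. Its log2 ratio of IP to input was 1.06, 1.06, 0.53 and 1.91 at S0 and 2.81, 2.95, 3.06 and 2.97 at S6, without overlap. The gain was 2.14 ± 0.59 (edgeR, adjusted p = 0.0936), while RBM17 input fell to 16, 11, 6 and 3 reads in this peak at S6, and the call held in only 6 of 22 alternative settings. Losses were called in RBM6 peak 4001 (-3.87 ± 0.72, adjusted p = 0.0222), HNRNPUL1 peak 2101 (-4.54, adjusted p = 0.0324), SRSF1 peak 1641 (-3.43), HNRNPF peak 2404 (-4.75) and SRRM2 peak 2901 (-5.20), the last 3 with adjusted p of 0.084 to 0.0877 by edgeR. The RBM6 call was lost without either MEL1 S0 replicate and with IP and input of a preparation as a block (highest adjusted p 0.156). Of 22 alternative settings, the SRSF1 call held in 10, the HNRNPF and SRRM2 calls in 9 each, and the HNRNPUL1 call in 16, and the first 3 were lost with the replicate block and with IP and input normalised separately. From S0 to S3 the single called peak was DDX5 peak 189, with 4883, 5612, 4178 and 5842 IP reads at S0 and 1115, 1166, 2090 and 2286 at S3. All S3 libraries lay below all S0 libraries in IP, with input of 1862 to 4537 reads at S0 and 2454 to 4553 at S3. The change was -2.10 ± 0.42 (adjusted p = 0.0536, edgeR), and 8 of 22 alternative settings lost the call.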

How the data were processed

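The authors mapped reads of 32 libraries, counted them in 50-bp bins of Ensembl annotation version 94, and called, merged and counted m6A peaks with MeRIPtools. The deposited table holds raw counts per merged peak and library. The aligner, genome build, peak settings and the strand setting of the counting are not given in the sources used here, so reads of overlapping genes may not be told apart. The tests had been planned on counts per gene, and a gene's input count is here the sum over its peaks. The members and lists were chosen with earlier results of these data known.

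R 4.3.3 with edgeR 4.0.16, DESeq2 1.42.0 and limma 3.58.1 was used, and plots were made with matplotlib 3.10.9 in Python 3.11.15. Features with at least 10 reads in total were kept and normalised by TMM. Input was fitted with edgeR's quasi-likelihood test on stage and cell line over 16 libraries, line differences as interaction contrasts of line-by-stage means, and IP relative to input as a stage-by-library-type term over all 32 libraries, with cell line. Calls needed a Benjamini-Hochberg adjusted p under 0.1 over all features and at least a 2-fold change, and SE is the log2 change divided by the square root of F. The scripts were tested on simulated data. Input totals had a median of 4318760 reads and IP totals of 13100407, and shallow peaks have wide errors. Named were 38 fixed genes, up to 10 called members per direction for each stage step (mean of at least 1 CPM), up to 5 called peaks per direction (mean of at least 10 IP reads) and up to 5 line differences, and for a gene its peak with most IP reads. Family counts and genes outside this rule, such as U2AF2, DDX17, RBM12B, RBM25 and the peaks enriched at every stage, were picked after their values were seen. Alternatives were other normalisations, filters and samples, DESeq2, no line term and replicate blocks. Within-line fits and fits without both MEL1 S4 preparations were added after seeing the data. Not every member is reported here by name. Promoter windows came from RefSeq (GRCh38.p14).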

Additional observations from a re-analysis of the deposited data

Results flagged for a closer look

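The change from S0 differed between the lines, by edgeR's interaction test, for 15 named members at S3 and 12 at S6, given here as H1 minus MEL1 on the log2 scale. At S3 the change was more positive in H1 for ELAVL2 (6.97, against 0 MEL1 reads), HNRNPH3 (2.85), RBM26 (2.69), HNRNPA3 (2.01), DDX6 (1.93), SRSF6 (1.92), DHX57 (1.81), PTBP3 (1.50), DHX33 (1.42), DDX21 (1.26) and RBMXL1 (1.12), and less positive for HNRNPA1L3 (-2.30), DDX46 (-1.42), ESRP2 (-1.07) and RBFOX2 (-1.07). At S6 it was more positive in H1 for ELAVL2 (4.88), NOVA1 (3.07), DHX57 (2.32), CELF4 (2.25), HNRNPH3 (2.15), HNRNPA1L2 (2.01), RBM4B (1.58), DDX6 (1.49) and ELAVL1 (1.47), and less positive for HNRNPA1L3 (-2.67), ESRP2 (-1.48) and ESRP1 (-1.37). Of 20 alternative settings, the HNRNPA1L3 difference kept its call in 7 at S3, where it ranged from -4.19 to -1.49, and in 15 at S6, the CELF4 difference in 11, and those of PTBP3 at S3 and HNRNPA1L2 at S6 in 16 each. DDX21 fell in both lines at S3, whereas HNRNPH3 and HNRNPA3 were called lower there in MEL1 and not in H1.

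In 13 of 224 combinations of a gene or family and a stage, 1 of the 4 input libraries lay far from the other 3. The cut-off gives about 1 in 20 for 4 draws from 1 group. Each stage here holds 2 lines and the family sums include the genes, so that rate does not apply as it stands. The flags are a list for inspection, and their number is not a result. RBFOX2 did so at 3 stages, with 745 CPM in MEL1 S3 replicate 2 (others 311 to 333), 232 CPM in H1 S4 replicate 2 (others 300 to 310) and 351 CPM in MEL1 S6 replicate 1 (others 385 to 392). The summed cell-type-restricted regulators stood at 1090 CPM in MEL1 S3 replicate 2, of which RBFOX2 was the larger part. H1 S4 replicate 2 was also low for IGF2BP1 (156 CPM, others 215 to 226) and high for SRRM3 (5.62 CPM, others 1.84 to 2.10). H1 S4 replicate 1 was high for the summed core spliceosome genes (1710 CPM), IGF2BP2 (417 CPM) and PRPF38B (81.7 CPM). The rest were ELAVL1 in H1 S3 replicate 1 (21.7 CPM), HNRNPA1L2 in H1 S0 replicate 1 (5.80 CPM), PTBP3 in MEL1 S6 replicate 1 (9.34 CPM) and SRSF1 in MEL1 S6 replicate 2 (287 CPM).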

How the results depend on the processing

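Of 147 single values, 86 kept their direction and their side of the threshold in every setting tried. Input scalings moved the median of all genes by at most 0.02 on the log2 scale. Enrichment moved more, by 0.15 to 0.52 with IP and input normalised separately and by -0.64 to -0.15 with DESeq2, and member peaks stayed more often depleted than enriched in each setting.

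Counts of called members changed by over 1.5 times as follows; the cause was not tested. From S0 to S3, 42 were called in MEL1 alone (19 over both lines); from S3 to S4, 1 by DESeq2, 3 in H1 and 3 in MEL1 (0); from S4 to S6, 1 without the line term and 9 in MEL1 (2); from S0 to S6, 20 in H1 (33). Of the peak changes, S0 to S3 gave 14 by DESeq2, 0 without the line term and 0 with the replicate block (1). S3 to S4 gave 69 by DESeq2 and 128 without both MEL1 S4 preparations (39). S4 to S6 gave 109 by DESeq2, 34 without the line term and 112 without both MEL1 S4 preparations (55). S0 to S6 gave 52 by DESeq2, 2 without the line term, 3 with the replicate block, 1 with IP and input of a preparation as a block and 3 with separate normalisation (12).

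The replicate block (line and number together) gave 18 calls from S0 to S3, 0 from S3 to S4, 2 from S4 to S6 and 32 from S0 to S6 for input, and 33 and 41 peak changes into and out of S4. Same-numbered libraries correlated at -0.07 to 0.07 in H1 and 0.20 to 0.26 in MEL1 over 5531 genes, so the numbers did not pair the samples in both lines.

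Leaving out 1 library in turn gave 15 to 27 calls from S0 to S3, 0 to 2 from S3 to S4, 1 to 4 from S4 to S6 and 26 to 44 from S0 to S6, 8 to 13 between lines, and 26 to 40 and 17 to 30 line differences at S3 and S6. Peak changes ranged from 0 to 1 (S0 to S3), 10, without H1 S4 replicate 1, to 57 (S3 to S4), 22, without H1 S6 replicate 1, to 64 (S4 to S6) and 0, without either MEL1 S0 preparation, to 22 (S0 to S6). Enrichment calls ranged from 298 to 332, 346 to 380, 303 to 346 and 361 to 382 at S0, S3, S4 and S6.

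In H1 alone DHX57 from S0 to S6 (0.02) and RBM26 from S0 to S3 (0.13) turned in direction. Without both MEL1 S4 preparations, so did DHX33 peak 3623 (1.54, from -6.26) and RBM6 peak 3451 (2.29, from -4.34) from S4 to S6 and SRRM4 peak 4251 at S4 (-0.71, and -0.03 without MEL1 S4 replicate 1, against 0.51 with all libraries and 3.56 without H1 S4 replicate 2). Its S3 to S4 change (-3.72) and S4 to S6 change (3.42) became -0.58 and 0.38 without H1 S4 replicate 2. Peaks with under about 10 IP reads limit what S4 can show, since both MEL1 IP libraries there are shallow.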
